A study of Mus musculus with 3 samples.

Results

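The longest enriched regions of wild-type H2A.Z in mouse embryonic stem cells (ESCs) were examined. They were chosen by the called length itself, as the regions of 2000 bp or more in the H2A.Z WT list at a P threshold of 1e-9, and 430 of its 78359 regions (0.549%) were that long. ESCs are pluripotent cells of the early embryo grown in culture. In all 3 libraries they were male cells of strain V6.5 (129SvJae and C57BL/6) by the growth text, kept with leukemia inhibitory factor. The first library, H2A.Z WT, expressed unmutated H2A.Z fused at its C terminus to YFP. The second, H2A.Z AP3, expressed the same fusion with G92N, D97N and S98K exchanges that put residues of H2A into the acidic patch. Both transgenes came from lentiviral vectors with a CMV promoter under a doxycycline-inducible rtTA system, were induced with 1 µg/ml doxycycline and were sorted for YFP. Both lines also carried hairpins against the 3′ UTR of endogenous H2A.Z, so the comparison of WT and AP3 was made on a background depleted of the cells' own protein. An anti-GFP antibody was used to precipitate both. The treatment text describes these lines as derivatives of KH2 ESCs, and each was represented by 1 line and 1 library. The third library, H3K27me3, was labelled wild type and was precipitated with an antibody against that mark.

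H2A.Z is a variant of the histone H2A that is placed in nucleosomes flanking transcription start sites and at other regulatory elements. Its acidic patch is a surface of the nucleosome that binds chromatin proteins. H3K27me3 is set by Polycomb repressive complex PRC2 and in ESCs marks many silent genes that act in development, often at promoters rich in CpG dinucleotides.

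The long H2A.Z WT regions lay mostly over promoters and large coding exons. H2A.Z AP3 regions touched 242 of the 430, against 12.9% of all H2A.Z WT regions, and H3K27me3 regions touched 200, against 8.08% of all. The 2 lists differed in how much they filled. Where present, H2A.Z AP3 covered a median of 16.5% of the long region and H3K27me3 a median of 60.8%. The lists hold coordinates with no height or read number, so the depth behind each region is unknown. A gap in a list is a place that failed the calling rules, not a place shown to lack the protein or mark.

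The following windows show the sequence at 8 of these regions. For each combination of lists they come from the longest region whose midpoint is in a promoter and the longest whose midpoint is not. Each is the stretch of 30 bases with the most CpG dinucleotides outside untranslated sequence, on the + strand of mm9 (NCBIM37), with every CpG in capitals. The lists named are those that touched the whole region. Of the windows themselves, those of Gm22 and Cacna1h lay in an H2A.Z AP3 region and that of Gm996 in an H3K27me3 region, and the others lay in neither.
Gm22, both lists, outside the annotated Gm22 and intronic only in the model Gm20388, chr8:124793071-124793100: cCGctttgccCGaaatggccaggCGCGgCG
Apc2, both lists, coding exon, chr10:79775658-79775687: agcCGccctCGgagctggaCGCGggcagCG
Gm996, H3K27me3 only, coding exon, chr2:25432908-25432937: gtgCGCGgCGCGggcCGggcagCGgctcCG
Plec, H3K27me3 only, coding exon, chr15:76009153-76009182: cCGgaagCGctgggCGtcctcctcCGCGCG
G430095P16Rik, H2A.Z AP3 only, intron, chr8:87248849-87248878: ggCGatttgtCGcagcccagggaaaCGaCG
Cacna1h, H2A.Z AP3 only, coding exon, chr17:25520037-25520066: gCGcCGcagcCGtttctcctCGCGcCGcCG
Pgf, neither list, intron, chr12:86516100-86516129: aggatctggcaCGagccttCGgCGggCGCG
Il28ra as nearest gene, neither list, intergenic, chr4:135210234-135210263: CGtggtcaaagcagtcacaggctCGatcCG
The windows of Gm996 and Cacna1h held 7 CpG and that near Il28ra held 3. Over the 427 long regions with a window outside untranslated sequence, the median was 6 CpG where H3K27me3 was present, with or without H2A.Z AP3, and 4 where it was absent.

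The lengths, which chose these regions and are given as description, ran from 2000 to 6550 bp with a median of 2275 bp (quartiles 2125 and 2568.8 bp). The shorter regions had a median of 250 bp. The long regions together held 1.05 Mb, or 3.73% of all bases in the list. There were 52 of 3000 bp or more, 10 of 4000 bp or more and 3 of 5000 bp or more. At the threshold, 23 regions of 2000 bp were counted and 20 regions of 1975 bp were not. Of the former 12 held an H2A.Z AP3 region, 6 an H3K27me3 region and 12 lay in promoters. Of the latter the numbers were 11, 9 and 8.

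The longest region, of 6550 bp, lay at chr17:25516351-25522900 within Cacna1h, which encodes a T-type voltage-gated calcium channel. It held an annotated start of a shorter Cacna1h transcript, and its midpoint was in an intron. H2A.Z AP3 covered 1700 bp of it (26.0%) and H3K27me3 covered none. The next, of 6150 bp, lay at chr15:76006976-76013125 over exons of Plec, the gene for the cytoskeletal linker plectin. It held no H2A.Z AP3 region, and H3K27me3 covered 400 bp (6.50%). The third, of 5400 bp at chr10:79773526-79778925, lay over exons of Apc2, a homologue of the Wnt pathway regulator Apc. H2A.Z AP3 covered 200 bp (3.70%) and H3K27me3 500 bp (9.26%). None of these 3 regions was covered by as much as 50% by either list.

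The other 7 of the 10 longest had little H3K27me3. Near Grtp1, 20606 bp from its start in intergenic sequence, a region of 4450 bp held 1525 bp of H2A.Z AP3 (34.3%) and no H3K27me3. A region of 4225 bp in the body of Kif26a, a member of the kinesin family, had its midpoint in an intron although 57.9% of its bases were coding. It held 100 bp of H2A.Z AP3 (2.37%) and no H3K27me3. G430095P16Rik and Gm962 held their own starts in regions of 4175 and 4150 bp, of which H2A.Z AP3 covered 37.7% and 13.3% and H3K27me3 none. At Gm22 a region of 4150 bp over the start was 49.4% covered by H2A.Z AP3 and 21.7% by H3K27me3. The last 2 of the 10 lay over exons of Bsn, which encodes the presynaptic scaffold protein Bassoon. The region of 4075 bp had no H2A.Z AP3 and 20.9% H3K27me3. The region of 4025 bp, on the same gene, had 34.8% H2A.Z AP3 and 1.86% H3K27me3. These neighbouring regions of 1 gene thus differed in which list covered more.

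**Figure D1:**
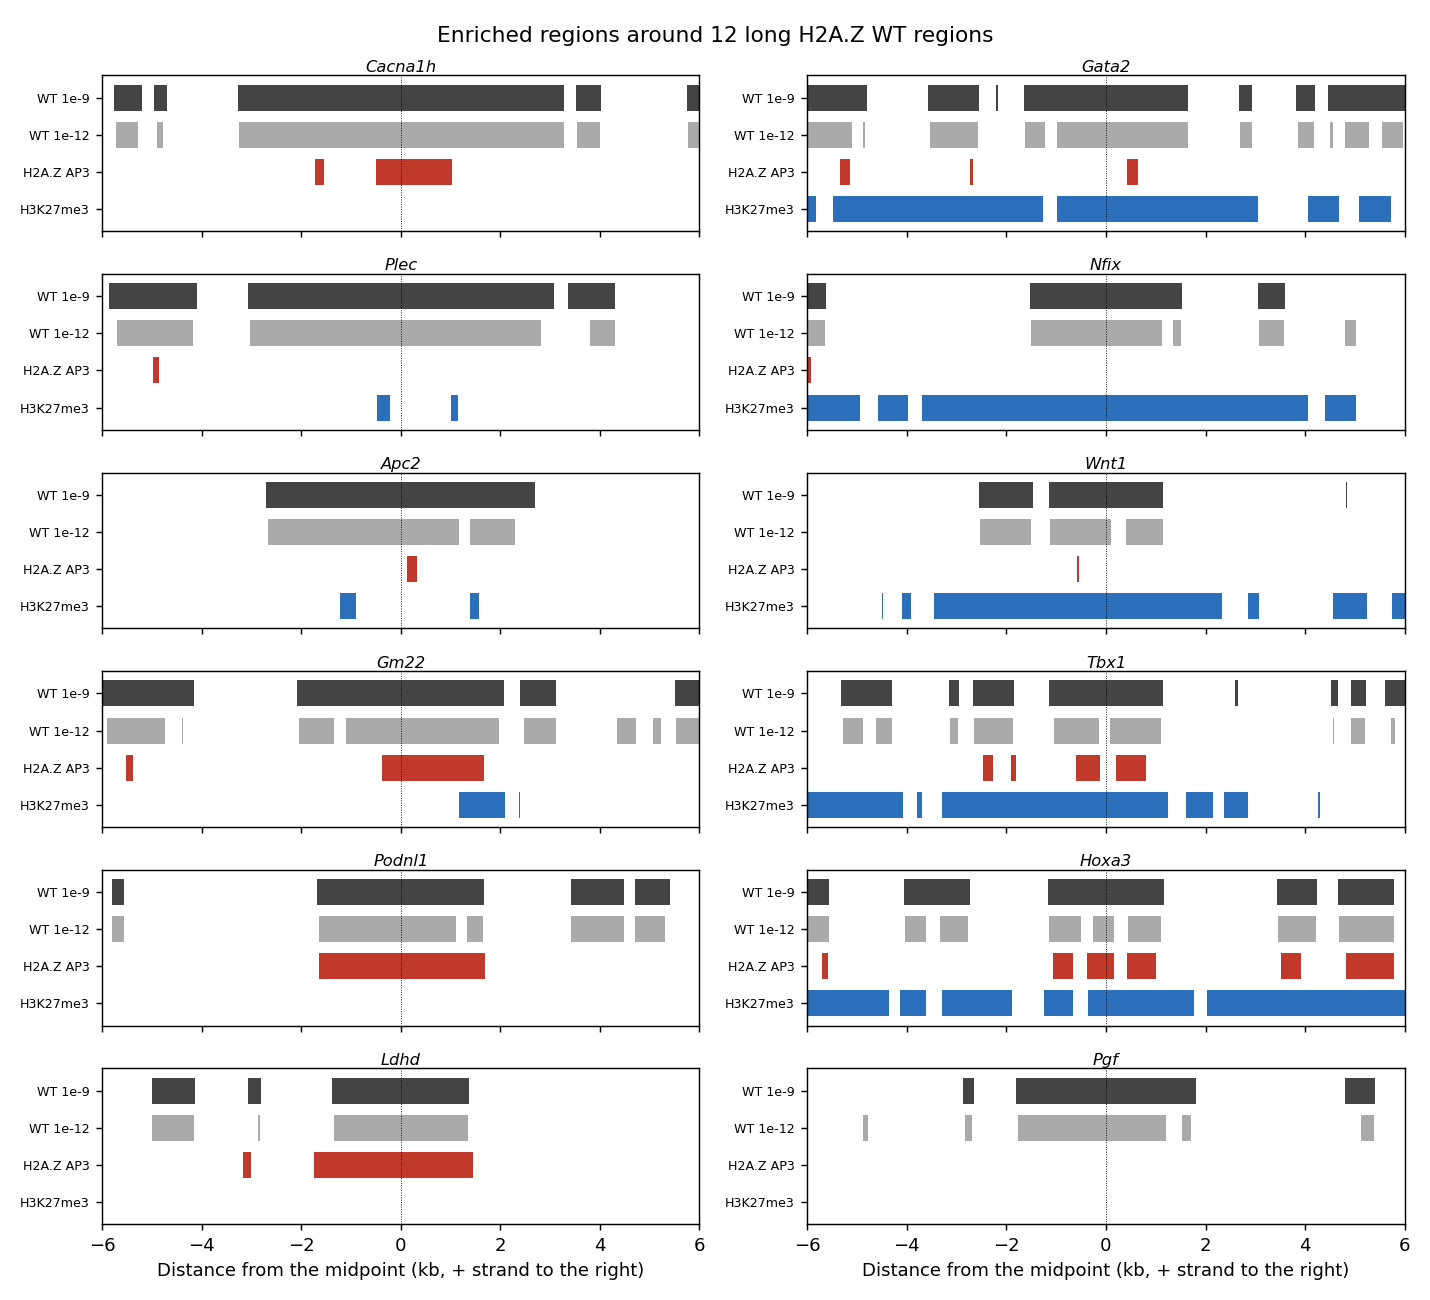
Blocks of the deposited lists around 12 long H2A.Z WT regions, as distance from the midpoint in kb, with the H2A.Z WT list at 1e-9 and 1e-12, H2A.Z AP3 at 1e-9 and H3K27me3 at 1e-9 on separate rows. H2A.Z AP3 appears as blocks inside the Cacna1h and Gm22 regions and over nearly the whole Podnl1 (99.3%) and Ldhd (100.0%) regions, whereas H3K27me3 spans the Nfix, Wnt1 and Tbx1 regions (100.0% each) and is absent from Pgf.

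Promoters took the largest share. By midpoint, 210 long regions (48.8%, 95% Wilson interval 44.1 to 53.6) were within 2 kb of a start of a protein-coding gene, against 24.2% of all H2A.Z WT regions. Exons outside promoters took 86 (20%, against 9.85% of all), introns 90 (20.9%, against 25.7%) and intergenic sequence 44 (10.2%, against 40.3%). These intervals, and all others given here, cover counting error only and treat regions as independent. Set against regions of 1000 to 1975 bp, the promoter share did not differ beyond that error (48.8% against 48.4%, difference 0.41 percentage points, Newcombe interval −4.50 to 5.34). The exon share was higher by 5.27 points (1.60 to 9.43) and the intergenic share differed by −8.11 points (−10.9 to −4.70). The excess of promoters over the whole list was therefore already present in regions of intermediate length, and it was the exon and intergenic shares that differed from those.

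A start site lay inside 179 long regions (41.6%, against 9.25% of all H2A.Z WT regions). Of these, 151 held the most upstream start of a gene and 28 held internal starts only. A median of 918 bp lay upstream of the start and 1349 bp downstream, and 130 of the 179 reached further downstream. Starts of at least 2 genes were found in 13, among them the region at Col4a1 and Col4a2, the genes for the basement membrane collagen chains that share a promoter. Of the remaining long regions, 50 had a start within 2 kb, 160 lay in a gene body and 41 were named for the nearest start, at a median of 23004 bp. Leaving out 15 named for Gm20388, a model of 4.43 Mb that spans other genes, 145 of those in a gene body could be placed along the gene. By midpoint, 72 (49.7%) lay in the last 25% of the gene, 46 between 50 and 75%, 21 between 25 and 50% and 6 in the first 25%. Regions near a start are not among them, which lowers the count of early positions by construction. In regions of 1000 to 1975 bp placed by the same rule, 600 of 1334 (45%) lay in the last 25%, a difference of 4.68 points (Newcombe interval −3.78 to 13.1) that the counts could not tell from 0.

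Coding sequence made up 32.3% of the bases in long regions and 13.9% of those in shorter regions. The share rose with each class of length, from 9.48% at 25 to 475 bp through 15.1%, 20.1% and 24.7% to the long regions. In 110 long regions at least 50% of bases were coding, in 36 at least 90% and in 117 none. At least 50% of the region lay in 1 coding exon in 90 cases, 51 of exon class and 39 of promoter class, and these exons had a median length of 2193 bp. The region of 4075 bp at Bsn lay entirely within a coding exon of 6642 bp, and 92.4% of the Apc2 region was a coding exon of 4990 bp. Of the 110 mostly coding regions, 53.6% held an H2A.Z AP3 region and 55.5% an H3K27me3 region.

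Some genes held several long regions. Counting genes with a region at a start or in the body, 28 had 2 or more. Overlapping genes were counted separately, so Gm5105 and 1110002E22Rik count the same 2 regions, and Necab2 and Osgin1 share a region. Adcy7, for an adenylyl cyclase, and Nfix, for a transcription factor of the nuclear factor I family, had 4 each. Besides the region it shared with G430095P16Rik, Nfix had 3 with midpoints in introns that differed in cover. The one of 3050 bp had no H2A.Z AP3 and complete H3K27me3 cover, that of 2625 bp had 74.3% H2A.Z AP3 and no H3K27me3, and that of 2175 bp had 44.8% and 37.9%. At Adcy7, none of the 4 held H3K27me3, and H2A.Z AP3 covered 21.9%, 6.31%, 0% and 0%. Bsn, Cacna2d4, Cbfa2t3, Cspg4, Mgll and Sspo had 3 each. The regions of Cspg4, for the proteoglycan NG2, lay in exons with no H3K27me3 and 5%, 12.2% and 0% H2A.Z AP3. Those of Mgll, for monoglyceride lipase, had midpoints in introns, no H3K27me3 and 29.5%, 19.6% and 2.27% H2A.Z AP3. Another Bsn region, of 2225 bp in a coding exon, had 18% H2A.Z AP3 and 80.9% H3K27me3. At Cacna2d4, for a calcium channel subunit, H2A.Z AP3 covered 24.1% of 1 region and none of the other two, and H3K27me3 covered 32.3% of the one that held the start of Lrtm2 and none of the rest. Lrrn2 had 2 regions, 1 at its start with 80.2% H3K27me3 and 1.04% H2A.Z AP3, and 1 in an exon with neither. Over the 28 genes, H2A.Z AP3 was found at some but not all long regions of 14 genes, at all of them in 8 and at none in 6. For H3K27me3 the numbers were 10, 3 and 15. Grin1, for a subunit of the NMDA receptor, Shank3, for a postsynaptic scaffold, and Flnc, for filamin C, had 2 each. One gene model was left out of this count. Gm20388 is annotated over 4.43 Mb of chromosome 8 (122434741 to 126869622) and spans other genes. Of the 90 intronic long regions, 16 lay in no other gene and are intronic by this model alone, and 15 carry its name.

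Genes for transcription factors of development were found among the long regions in small numbers, and the gene lists were chosen with earlier results of these data known. Over all 22342 protein-coding genes, 254 (1.14%) had a long region within 2 kb of a start, and 379 (1.70%) had one there or in the body. Of 117 homeobox genes outside the Hox clusters, 5 had one at a start (4.27%). They included Pou4f2, which acts in retinal development, Irx5 and Irx6 of the Iroquois family, and Tlx2. All 5 held H3K27me3 and 4 held H2A.Z AP3. Their regions were of promoter class, and of all 210 long promoter regions 68.1% held H3K27me3 and 59.5% H2A.Z AP3. The Pou4f2 region, of 3525 bp, had 925 bp of H2A.Z AP3 (26.2%) and 2675 bp of H3K27me3 (75.9%). The Tlx2 region, of 2550 bp, had 850 bp of H2A.Z AP3 (33.3%) and was wholly covered by H3K27me3. The Irx6 region, of 2050 bp, had 675 bp of H2A.Z AP3 (32.9%) and 1150 bp of H3K27me3 (56.1%).

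Among 39 Hox genes, 1 had a long region at a start. It lay at chr6:52161076-52163400 over an upstream start annotated for Hoxa3 and overlapped the annotated body of Hoxa6, and H2A.Z AP3 covered 1550 bp of it (66.7%) and H3K27me3 2025 bp (87.1%). It lay in the longest joined H3K27me3 domain met by any long region, of 55825 bp. Of 6 Gata genes there were 2. Gata2, a regulator of blood formation, had a region of 3300 bp with 225 bp of H2A.Z AP3 (6.82%) and 3000 bp of H3K27me3 (90.9%). Gata4, a regulator of heart and endoderm, had one of 2100 bp with 275 bp (13.1%) and 1700 bp (81.0%). Both Gata regions were thus largely filled by H3K27me3 and little by H2A.Z AP3.

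Single members of other developmental families varied more. Tbx1, a T-box gene of pharyngeal development, had a region of 2300 bp whose midpoint was beyond the 2-kb window, with H2A.Z AP3 over 1075 bp (46.7%) and H3K27me3 over all of it. The ligand gene Wnt1 had a region of 2300 bp with 25 bp of H2A.Z AP3 (1.09%) and complete H3K27me3 cover. Sox21 had 8.24% H2A.Z AP3 and 42.4% H3K27me3, and the ligand gene Bmp7 1.18% and 50.6%. Foxs1, with a region of 2175 bp, had neither. No long region was found at the 9 Pax genes or the 9 Notch receptor and ligand genes.

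Genes of axon guidance, ion channels and collagens were counted in the same way. Of 72 axon guidance genes, 6 had a long region at a start (8.33%) and 8 at a start or in the body. Nrp1, for neuropilin, had a region of 3125 bp with 15.2% H2A.Z AP3 and 78.4% H3K27me3. Plxnd1, for a plexin receptor, had 2 without H3K27me3, of which H2A.Z AP3 covered 24.5% and 1.01%. Of 85 potassium channel genes 4 had one at a start (4.71%). Kcnf1 had 29.0% H2A.Z AP3 and 94.4% H3K27me3, Kcna6 had 33.7% and 70.3%, and Kcnn2 had 3.67% and none. Of 39 calcium and sodium channel genes, 1 had one at a start and 3 at a start or in the body. Of 43 collagen genes 3 had one at a start. The region shared by Col4a1 and Col4a2 was 55.3% covered by H2A.Z AP3 and 59.2% by H3K27me3, and that of Col16a1 held neither.

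No gene of several other lists held a long region at a start or in the body. This was so for 80 cytosolic and 76 mitochondrial ribosomal protein genes, 21 core pluripotency genes, 32 genes of Polycomb complexes, 24 clustered protocadherin genes, 11 laminin genes and 1113 olfactory receptor genes. At 1.14% of all genes, lists of 9 to 80 genes would hold few such genes in any case.

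H2A.Z AP3 was present at more of the long regions than of the others, and mostly as a small part of them. An H2A.Z AP3 region overlapped 242 of the 430 (56.3%, Wilson interval 51.6 to 60.9), against 12.9% of all H2A.Z WT regions. The difference from shorter regions was 43.6 percentage points (Newcombe interval 38.8 to 48.2) and was positive on 20 of 20 chromosomes. Against regions of 1000 to 1975 bp, of which 39.7% were overlapped, it was 16.6 points (11.7 to 21.5), positive on 19 of 20. A longer region has more bases that can meet another list. Counted by bases, the share in H2A.Z AP3 was 5.78%, 10.4%, 13.1% and 15.2% in the 4 shorter classes of length, from 25 to 475 bp up to 1500 to 1975 bp, and 14.4% in the long regions. Over all shorter regions it was 9.02%. At the midpoint base the share was 17.0% for long regions and 15.2% for regions of 1000 to 1975 bp, a difference of 1.80 points (−1.62 to 5.77). The share of bases in H2A.Z AP3 was thus higher in long than in all shorter regions, but not higher than at 1500 to 1975 bp.

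Within the 242 regions, H2A.Z AP3 covered a median of 16.5% (quartiles 7.06 and 37.7%), or 400 bp. It formed 1 block in 172 regions, 2 in 56, 3 in 13 and 4 in 1. Cover was 12.1% in the outer 500 bp on each side and 16.0% further in. At least 50% was covered in 36 long regions and at least 90% in 11. Complete cover was found at Ldhd, for a D-lactate dehydrogenase (2750 bp), and Nod1, for an intracellular sensor of bacterial peptidoglycan (2200 bp). Podnl1 had 99.3% of 3350 bp covered and Hsf4, for a heat shock transcription factor, 98.8% of 2125 bp. Ldhd and Podnl1 had no H3K27me3, Nod1 had 23.9% and Hsf4 57.6%. High H2A.Z AP3 cover therefore occurred at regions with and without a call in the H3K27me3 list. That list came from cells labelled wild type, so the lists do not give the mark in the AP3 line. Of the 23 H2A.Z AP3 regions that themselves reached 2000 bp, 11 overlapped a long H2A.Z WT region.

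H3K27me3 regions overlapped 200 of the 430 long regions (46.5%, 41.8 to 51.2), against 8.08% of all H2A.Z WT regions. The difference from shorter regions was 38.6 points (34.0 to 43.4), positive on 19 of 20 chromosomes, and from regions of 1000 to 1975 bp it was 14.9 points (9.99 to 19.8), positive on 16 of 20. By bases, H3K27me3 covered 3.87%, 10%, 16.6% and 23% in the 4 shorter classes and 25.4% in the long regions, against 9.06% over all shorter regions. At the midpoint base the difference between long regions and those of 1000 to 1975 bp was 11.2 points (7.05 to 15.8).

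Where H3K27me3 was present it covered a median of 60.8% of the long region (quartiles 23.8 and 85.5%), or 1462.5 bp. At least 50% was covered in 117, at least 90% in 39 and all in 17, among them Nfix, Tlx2, Tbx1, Wnt1, Fam43b and an exon of C530008M17Rik. Cover was alike in the outer 500 bp (25.9%) and further in (25%). With gaps of up to 1000 bp joined, the H3K27me3 domain at these regions had a median length of 3100 bp and reached 55825 bp. In 130 cases it was longer than the H2A.Z WT region it met and in 11 it reached 10 kb.

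**Figure D2:**
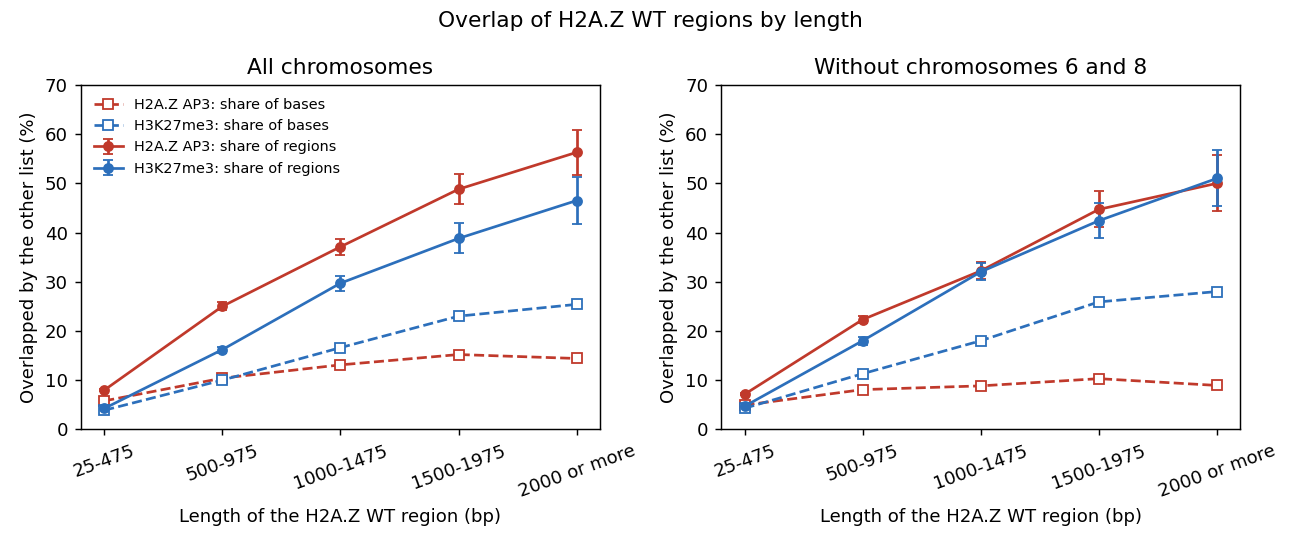
Share of H2A.Z WT regions that held a region of the other list (filled points, bars are 95% Wilson intervals) and share of their bases covered by it (open squares), in percent, by length class in bp, for all chromosomes and without chromosomes 6 and 8. The share of regions rises to 56.3% for H2A.Z AP3 and 46.5% for H3K27me3, while the share of bases in H2A.Z AP3 is 15.2% at 1500 to 1975 bp and 14.4% in the long regions.

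The lists divided the long regions into 4 sets. Both H2A.Z AP3 and H3K27me3 were found at 111 (25.8%, against 2.16% of all H2A.Z WT regions), H2A.Z AP3 alone at 131 (30.5%, against 10.8%), H3K27me3 alone at 89 (20.7%, against 5.92%) and neither at 99 (23.0%, against 81.1% of all). A longer region can meet another list more easily, and regions of 1000 to 1975 bp are nearer in length. Among those the shares were 14.6% for both, 25% for H2A.Z AP3 alone, 17% for H3K27me3 alone and 43.3% for neither. The median length was 2275 bp in each set of long regions. The longest region with neither was that at Pgf, for placental growth factor, of 3600 bp. Next came one of 3450 bp in intergenic sequence 29452 bp from the start of Il28ra and one of 3325 bp in Tnxb, for tenascin X, with its midpoint in an intron and 26.3% of its bases coding.

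The share of long regions with H2A.Z AP3 did not differ by H3K27me3 beyond counting error. H2A.Z AP3 was found at 55.5% of the long regions with H3K27me3 and at 57.0% of those without, a difference of −1.46 points (−10.8 to 7.87). In regions of 1000 to 1975 bp the shares were 46.3% and 36.6%, a difference of 9.66 points (6.57 to 12.7). The difference between these differences was −11.1 points (−20.9 to −1.29). Without chromosomes 6 and 8 it was −11.3 points and its interval reached 0 (−23.2 to 0.588). By bases, H2A.Z AP3 covered 14.8% of long regions with H3K27me3 and 14.1% of those without.

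The same difference was taken within each annotation class, and it was largest in introns, where few regions held H3K27me3. In promoters H2A.Z AP3 was found at 60.8% of long regions with H3K27me3 and 56.7% of those without, a difference of 4.12 points (−9.73 to 18.3). In introns it was found at 3 of 14 with H3K27me3 and 48 of 76 without, a difference of −41.7 points (−58.8 to −13.3). The difference between introns and promoters was −45.9 points (−68 to −14.2). No other pair of classes was compared, and the pair was chosen with earlier results of these data known, so this interval is descriptive. Without chromosomes 6 and 8 the intron counts were 1 of 9 and 17 of 30 (−45.6 points, −63.9 to −8.76). On chromosomes 6 and 8 they were 2 of 5 and 31 of 46 (−27.4 points, −58 to 12.3). Over all chromosomes the exon counts were 13 of 31 and 29 of 55, a difference of −10.8 points (−30.8 to 10.8), which the counts could not tell from 0. In intergenic sequence they were 8 of 12 and 16 of 32, a difference of 16.7 points (−15.4 to 42.1), which they could not tell from 0 either. Where both lists were present, 65.6% of the bases in H2A.Z AP3 were also in H3K27me3, and H3K27me3 covered 58.3% of these regions.

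**Figure D3:**
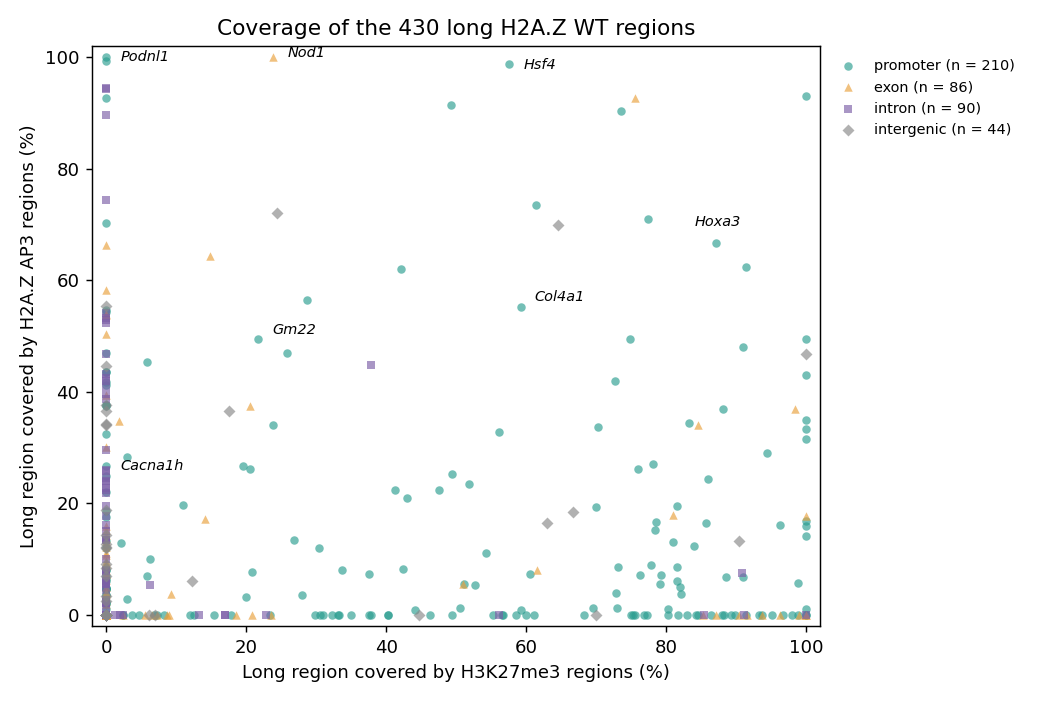
Percent of each of the 430 long H2A.Z WT regions covered by H3K27me3 (horizontal) and by H2A.Z AP3 (vertical), with 1 point per region and the symbol giving the annotation class. Intronic regions lie mostly along the left edge, where H3K27me3 is absent, promoters spread over the whole range of H3K27me3 cover, and few regions exceed 50% for H2A.Z AP3 (36 regions).

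H3K27me3 went with promoters and with CpG content, and H2A.Z AP3 did so little. H3K27me3 was found at 68.1% of promoter regions and 25.9% of the other long regions, a difference of 42.2 points (33.2 to 50.2). For H2A.Z AP3 the shares were 59.5% and 53.2%, a difference of 6.34 points (−3.02 to 15.5). The ratio of observed to expected CpG had a median of 0.602 in long regions with H3K27me3 and 0.312 in those without. With and without H2A.Z AP3 it was 0.435 and 0.415. Of the 115 long regions with a ratio of 0.6 or more, 88.7% held H3K27me3, against 31.1% of the other 315, a difference of 57.6 points (48.7 to 64.3). For H2A.Z AP3 the shares were 64.3% and 53.3%, a difference of 11 points (0.425 to 20.9). Promoters made up 79.1% of the 115 and 37.8% of the 315, so promoter class and CpG content were not told apart here. The ratio was 0.796 in the Gm996 region, 93.2% covered by H3K27me3, and 0.257 in the Pgf region, which had neither.

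Around the 179 starts inside long regions, both lists dipped just upstream of the start and peaked on either side. The positions given are the bins of 25 bp with the highest and lowest cover, picked from the profile, and have no intervals. H3K27me3 covered 38.4% of these regions at 675 bp upstream, 22.5% at 200 bp upstream and 49.7% at 900 bp downstream. H2A.Z AP3 covered 16.5% at 350 bp upstream, 11.3% at 125 bp upstream and 20% at 725 bp downstream. Averaged over 1 kb, H2A.Z AP3 cover was 12.5% upstream and 15.4% downstream, and H2A.Z WT cover was 76.3% and 93.5%. As a percent of H2A.Z WT cover, H2A.Z AP3 came to 16.4% on both sides. This ratio was 15.9% upstream and 16.5% downstream in the 122 regions with H3K27me3, and 17.4% and 16.2% in the 57 without. The downstream lean of H2A.Z AP3 thus followed that of the H2A.Z WT regions. The choice of regions that hold a start fixes H2A.Z WT cover at the start, but not the side to which it leans.

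**Figure D4:**
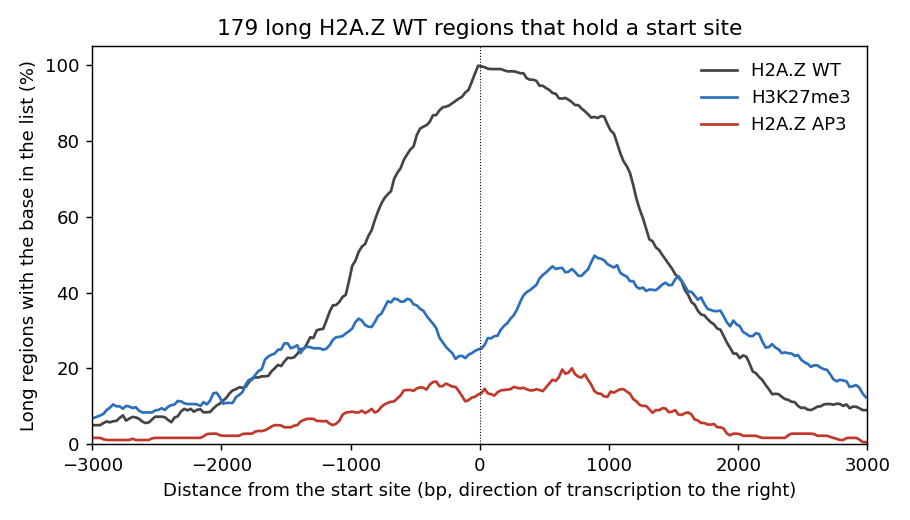
Percent of the 179 long regions with a start site inside that had each base in the H2A.Z WT, H2A.Z AP3 or H3K27me3 list, by distance from the start in bp with transcription to the right. H3K27me3 dips to 22.5% just upstream of the start and reaches 49.7% at 900 bp downstream, and H2A.Z AP3 stays at or under 20%.

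Long regions were unevenly spread over the chromosomes. Chromosome 8 held 91 (21.2%) and chromosome 6 held 51 (11.9%), together 142 or 33%, against 19.0% of all H2A.Z WT regions and 10.7% of the assembly. Per Mb there were 0.691 on chromosome 8 and 0.341 on chromosome 6, and 0.0582 to 0.222 on the other 17 autosomes. The X chromosome held 1. The whole lists of both YFP fusions were also denser on these chromosomes. H2A.Z AP3 regions numbered 14.3 per Mb on chromosome 6 and 15.2 on chromosome 8, against 3.30 to 8.13 elsewhere. H3K27me3 regions numbered 6.27 and 6.36, inside the range of 4.39 to 11.5 of the other autosomes. H2A.Z WT regions numbered 49.3 and 57.1, against 19.3 to 45.6. The density of both YFP lists therefore stood apart on chromosomes 6 and 8 and that of the mark did not. The part of these chromosome-wide densities in the results on long regions was not tested beyond leaving both chromosomes out.

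The long regions of chromosomes 6 and 8 also differed in composition. H2A.Z AP3 was found at 69.0% of them and 50% of the others, a difference of 19.0 points (9.15 to 28.1), and covered 25.1% against 8.92% of bases. H3K27me3 was found at 37.3% and 51%, a difference of −13.7 points (−23.2 to −3.71). The lower H3K27me3 share was seen on chromosome 8 only, with 27 of 91 (29.7%), whereas chromosome 6 had 26 of 51 (51%). Of the 36 long regions with H2A.Z AP3 over at least 50%, 29 lay on these chromosomes, as did 51 of the 90 intronic ones, including those named for Gm20388. Without both chromosomes, H2A.Z AP3 was found at 50% of 288 long regions and 11.2% of shorter regions, a difference of 38.8 points (33.1 to 44.5). H3K27me3 was found at 51% and 8.54%, a difference of 42.5 points (36.7 to 48.2). By regions touched, the excess of both lists over all shorter regions was therefore present on the remaining chromosomes too. By bases there, H2A.Z AP3 covered 8.92% in long regions, 8.83% at 1000 to 1475 bp and 10.3% at 1500 to 1975 bp. At the midpoint base, long regions differed from those of 1000 to 1975 bp by 0.987 points for H2A.Z AP3 (−2.37 to 5.3). For H3K27me3 that difference was 13.4 points (8.12 to 19.1).

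**Figure D5:**
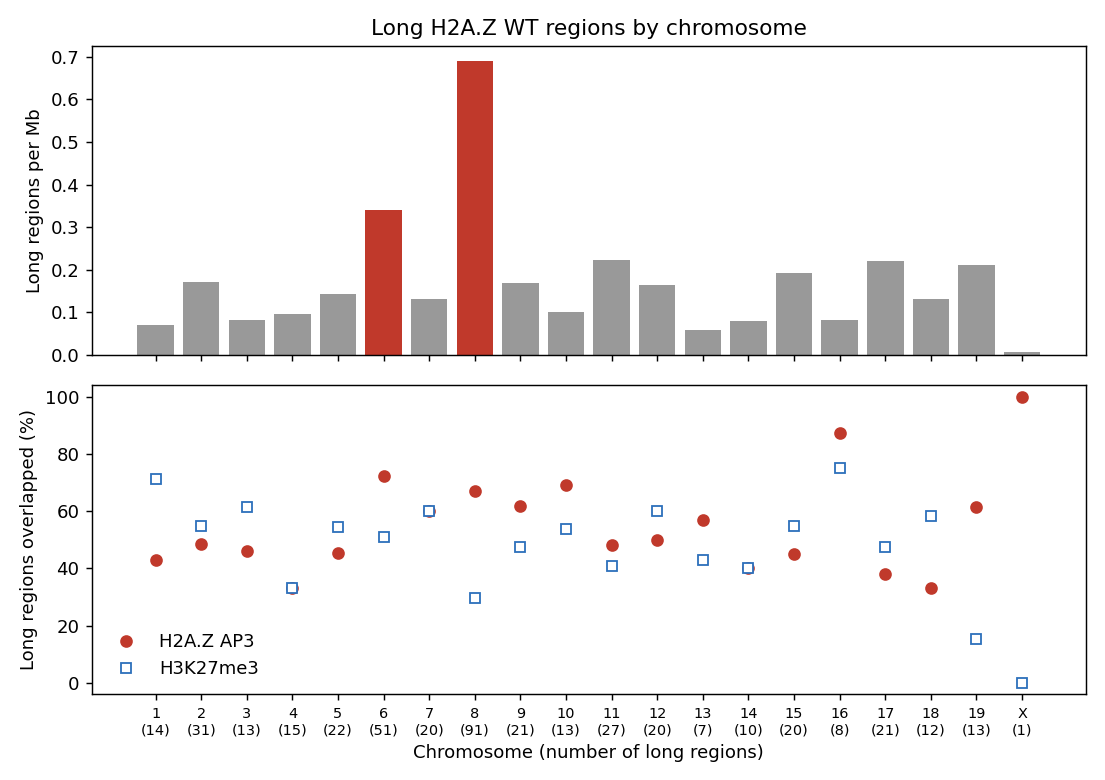
Long H2A.Z WT regions per Mb by chromosome (bars, chromosomes 6 and 8 in red) and the percent of them overlapped by H2A.Z AP3 (filled circles) and by H3K27me3 (open squares), with the number of long regions under each chromosome. Chromosomes 8 (0.691 per Mb) and 6 (0.341 per Mb) stand above all others, and shares on chromosomes with few long regions, such as X with 1, rest on little.

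Long regions seldom stood alone. The median number of other H2A.Z WT regions within 5 kb was 2, and 22.3% of long regions had none, against 1 and 36.0% for shorter regions. The nearest neighbour was at a median gap of 1162.5 bp, against 2600 bp. No gap in the list was under 225 bp, and whether calls nearer than that were joined is not given in the sources used here. At the stricter threshold of 1e-12, from the same library, each of the 430 kept at least 1 region, against 75.7% of all H2A.Z WT regions and 99.8% of those of 1000 to 1975 bp. Of the bases 86.6% remained, against 74.2% in shorter regions. The call stayed in 1 piece in 255 and split into 2 in 138, 3 in 31 and 4 in 6. The Cacna1h region kept 99.6% of its bases in 1 piece, whereas the Kif26a region kept 73.4%.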

How the data were processed

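A total of 3 ChIP-Seq libraries of mouse ESCs were used, each the only one of its group, and grouping followed the genotype and antibody labels. Per the labels and methods, the authors aligned reads to mm9 with Bowtie (0.12.3 in the submitters' processing notes, which also name bedtools), assigned extended reads to bins of 25 bp and called enriched bins with a Poisson model against input. For H2A.Z the methods also required bins to exceed input by a minimum fold. The deposited lists hold region coordinates at thresholds of 1e-9 and 1e-12 and no other value, so depth is unknown. The methods name only 1e-9, which gave the main values.

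A region counted as overlapped when it shared 1 bp or more with the other list. Regions were assigned by midpoint to promoter (within 2 kb of a start of a protein-coding transcript), exon, intron or intergenic sequence in GENCODE vM1 on NCBIM37, whose chromosome lengths fit mm9. Shares have Wilson and differences Newcombe 95% intervals, and differences of differences combine the latter. With 1 library per group no test between groups was possible. Regions, gene lists and comparisons were chosen with earlier results of these data known. Named were the 10 longest regions, the 3 longest of each annotation class and list combination, the 5 with the highest cover by each list and up to 3 of the longest per gene list. Other genes in the text were named after their values were seen. Alternatives changed the length limit, threshold, joining, chromosomes, overlap criterion and promoter window. The overlap functions were tested on simulated data. Python 3.11.15, NumPy 2.4.6, pandas 2.3.3 and Matplotlib 3.10.9 were used. The labels and the methods name different H3K27me3 antibodies.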

Additional observations from a re-analysis of the deposited data

Results flagged for a closer look

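One long region of the stricter H2A.Z WT list had no counterpart in the list used for the main values. Of the 199 regions of 2000 bp or more called at 1e-12, 198 lay inside long regions called at 1e-9 and 1 shared no base with that list. It lay at chr9:119051526-119053525, in an intron, was 2000 bp long and held neither H2A.Z AP3 nor H3K27me3. The 1e-12 list is therefore not a strict subset of the 1e-9 list, and the cause was not tested.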

How the results depend on the processing

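The excess of H2A.Z AP3, H3K27me3 and promoters at long over shorter regions kept its sign, with intervals above 0, under each alternative run. It ranged from 2.92 to 52.5, 22 to 42.5 and 12.4 to 32.6 percentage points. The lowest H2A.Z AP3 value required 50% of the region covered. These alternatives all kept the shorter regions as a whole for comparison. Against regions of 1000 to 1975 bp, the overlap differences were 16.6 points for H2A.Z AP3 and 14.9 for H3K27me3. The promoter difference was then 0.41 points (−4.50 to 5.34). At the midpoint base it was 1.80 points for H2A.Z AP3 (−1.62 to 5.77) and 11.2 for H3K27me3 (7.05 to 15.8). In all, 66 of 87 alternatives left a value within its interval, within 1.5 times for the count, or on the same side of 0 for a difference, and 21 did not. The 66 include settings that could change little or nothing, namely joining across 100 bp and leaving out X, which held 1 long region. For shares of bases the interval was computed as for a share of the 430 regions. The 430 regions became 1414 at 1500 bp or more, 52 at 3000 bp or more, 199 with the 1e-12 lists and 1221 with gaps of up to 500 bp joined. Joining across 100 bp changed nothing, since no gap is that short. At 1500 bp the shares with H2A.Z AP3 and H3K27me3 were 51.1% and 41.2%. At 3000 bp H2A.Z AP3 was at 65.4%, H3K27me3 covered 18.4% of bases and 36.5% were promoters. Without chromosomes 6 and 8, H2A.Z AP3 was at 50% and covered 8.92% of bases, and it covered 11% after joining across 500 bp. With at least 10% covered the shares were 36% and 40.2%, with 50% they were 8.37% and 27.2%, and at the midpoint base 17% and 27.7%. The promoter share was 36.3% with 1 kb, 58.1% with 5 kb and 41.6% for starts inside the region. Of the alternatives, only the omission of chromosomes 6 and 8 from the difference of differences was unplanned. The regions and comparisons themselves were chosen with earlier results of these data known. No paired analysis was possible because each group had 1 library and the result comes from no test between groups, and leaving out a replicate was not possible for the same reason. The lists hold no read counts, so depth limits every length and share by an unknown amount.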
